A study of Mus musculus with 6 samples.

Results

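Among the immune cells sorted from these mouse tumours, 1146 cell barcodes met a definition of a macrophage state marked by Vcam1, H2-M2 and Dnase1l3. They were chosen by their own measured counts of 11 genes. A member held at least 10 UMIs (unique molecular identifiers, each standing for 1 captured mRNA molecule) of C1qa, C1qb and C1qc together. These 3 genes encode complement C1q and mark mature macrophages. A member also held at least 3 UMIs of Vcam1, H2-M2 and Dnase1l3 together, at most 2 UMIs of Gpnmb, and 0 UMIs of the microglial genes P2ry12 and Tmem119, of the T cell gene Cd3e and of the B cell gene Cd79a. Members were 2.44% of the 46891 barcodes left by limits of 500 or more UMIs, 200 or more genes and no more than 10% mitochondrial UMIs. They were 42.9% of 2670 macrophages, counting with them the 1524 barcodes that met every other criterion but held 0 to 2 UMIs of the 3 genes, called other macrophages below. A further set, the 163 Gpnmb-high macrophages, met the same criteria on C1q, microglial and lymphocyte genes but held at least 3 UMIs of Gpnmb. No limit on Vcam1, H2-M2 and Dnase1l3 was set for the Gpnmb-high macrophages.

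The BrM tumours had grown in the brain and the MFP tumours in the mammary fat pad, after orthotopic injection of 1 breast cancer line derived from a brain metastasis. All mice were female C57BL/6J animals, 10 to 12 weeks old, and no allele or treatment beyond the tumour is given for either site. Viable, nucleated CD45-positive cells were sorted from the dissociated tumours, and 3 libraries per site were made with the 10x Genomics 3' version 3 chemistry. Whether the libraries of one site stem from different mice is not stated, so every p-value reflects library-to-library spread alone, and that spread may be technical.

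Macrophages in tumours arise largely from blood monocytes, which lose monocyte genes and gain C1q as they mature in the tissue. VCAM-1, the product of Vcam1, is an adhesion protein that binds the integrin alpha4 beta1 on leukocytes. It is also found on macrophages of the spleen, bone marrow and mammary tumours. H2-M2 encodes a class Ib protein of the mouse major histocompatibility complex (MHC), Dnase1l3 a secreted nuclease that degrades DNA in cell debris, and Acp5 the tartrate-resistant acid phosphatase best known from osteoclasts. CXCL9 is a chemokine that draws CXCR3-bearing T and NK cells and is induced by interferon-gamma.

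In the GENCODE M21 annotation of GRCm38, Vcam1 lies at chr3:116109949-116129688, H2-M2 at chr17:37480851-37483552, Dnase1l3 at chr14:7964533-7994573, Acp5 at chr9:22126727-22135711 and Cxcl9 at chr5:92321347-92328079. All 5 are protein-coding genes on the minus strand. RefSeq promoters (GRCm38.p6, 250 bases before to 50 after the start) are shown for H2-M2, the defining gene found in the fewest members, and for Cxcl9, which had the highest fold change among the called genes at 20 CPM or more that were higher in members of every library tested. Capitals mark matches, on either strand, to the letters GGGNNTNCC (NF-kB), GAGGAA (PU.1, the macrophage lineage factor) and TGANTCA (AP-1).
H2-M2 chr17:37483505-37483804, minus strand: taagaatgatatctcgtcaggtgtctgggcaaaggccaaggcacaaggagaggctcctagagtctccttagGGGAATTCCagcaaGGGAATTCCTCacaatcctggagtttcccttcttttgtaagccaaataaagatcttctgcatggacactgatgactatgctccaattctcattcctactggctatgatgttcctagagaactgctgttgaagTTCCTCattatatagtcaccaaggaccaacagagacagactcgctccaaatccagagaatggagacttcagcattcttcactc
Cxcl9 chr5:92328030-92328329, minus strand: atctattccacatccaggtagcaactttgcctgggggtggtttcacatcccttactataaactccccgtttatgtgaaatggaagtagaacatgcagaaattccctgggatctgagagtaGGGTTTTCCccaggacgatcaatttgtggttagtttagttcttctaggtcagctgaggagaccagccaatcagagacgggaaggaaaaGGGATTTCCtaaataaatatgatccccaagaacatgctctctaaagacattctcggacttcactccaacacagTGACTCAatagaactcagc
H2-M2 held 2 NF-kB matches, which start 179 and 165 bases before the gene's start, and 2 PU.1 matches on the opposite strand. The first of those PU.1 matches overlaps the second NF-kB match. Cxcl9 held 2 NF-kB matches, 130 and 42 bases before its start, and 1 AP-1 match at base 32 after it. Among 32851 RefSeq promoters of this length, 16.4% held the NF-kB letters, 28.3% the PU.1 letters and 7.81% the AP-1 letters. Neither window held an ISRE, TTCNNNGAA (GAS), TGGGAA (RBPJ) or CACGTG (E-box). A match of letters describes the window and does not show a binding site.

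The libraries held 50692794 to 70944735 UMIs each, but macrophages were spread very unevenly over them. BrM 1, BrM 2 and BrM 3 held 7, 355 and 428 members, and MFP 1, MFP 2 and MFP 3 held 17, 9 and 330. So 1113 members came from BrM 2, BrM 3 and MFP 3, the 3 libraries with the highest UMI totals. Of all barcodes that passed the filters, members were 0.0883%, 4.62% and 5.23% in the BrM libraries and 0.213%, 0.106% and 4.98% in the MFP libraries. Values of BrM 1, MFP 1 and MFP 2 rest on a few cells: in MFP 1, 1 UMI over all 17 members equals 7.25 CPM (counts per 1000000 UMIs). Across libraries 292 barcode sequences recurred, 12 of them barcodes of members, and no sequence was a member in more than 1 library. Members were deeper than other macrophages in each library, with medians from 4757 UMIs in MFP 2 to 13388.5 in MFP 3, against 3429.5 UMIs in MFP 1 to 9769 in MFP 3 for other macrophages.

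The 3 genes that define the state are given as a description, since they chose the members. Vcam1 reached 237, 305 and 328 CPM in members of BrM 1, BrM 2 and BrM 3, and 217, 104 and 427 CPM in members of MFP 1, MFP 2 and MFP 3. Other macrophages held 12.2 to 24.2 CPM of Vcam1 in these libraries and T cells, taken as barcodes with Cd3e and without C1q, at most 6.70 CPM. Dnase1l3 reached 207, 507 and 661 CPM in BrM members and 717, 543 and 374 CPM in MFP members, against 16.3 to 72.7 CPM in other macrophages. The H2-M2 level in members was 0, 114 and 265 CPM in BrM and 14.5, 146 and 122 CPM in MFP, against 0 to 15.2 CPM in other macrophages. Of the 3 genes, H2-M2 was thus the only one missing from the members of a library, the 7 cells of BrM 1. Other macrophages were chosen to hold little of the 3 genes, whereas Gpnmb-high macrophages were not. In BrM 2 and BrM 3 the Gpnmb-high set held 0 and 292 CPM of H2-M2, 74.7 and 223 CPM of Vcam1, and 34.3 and 243 CPM of Dnase1l3. Its summed H2-M2 level in BrM 3 was thus above that of members, but the highest of its 75 cells held 109 of the 239 UMIs. H2-M2 was detected in 14.7% of that set and in 29.0% of members of BrM 3. In that library it thus occurred outside the members as well.

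Most members were held together by Dnase1l3 and Vcam1, and a minority carried H2-M2. In BrM 2, BrM 3 and MFP 3, Dnase1l3 was detected in 89.3%, 91.1% and 76.1% of members, Vcam1 in 61.1%, 67.3% and 80.0%, and H2-M2 in 15.5%, 29.0% and 23.3%. All 3 genes were found together in 10.4%, 20.3% and 15.2% of members. The pair of Vcam1 and Dnase1l3 without H2-M2 made up 40.3%, 38.1% and 41.8%. Members with Dnase1l3 alone were 35.5% in BrM 2, 27.3% in BrM 3 and 15.2% in MFP 3, and members with Vcam1 alone were 8.73%, 5.61% and 19.7%.

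Vcam1 helped to choose the members, so its excess over T cells was set by the definition and is given as a description. Cells of at least 5000 UMIs were thinned to 5000 UMIs. Among those, Vcam1 was detected in 50.7%, 56.0% and 66.2% of members of BrM 2, BrM 3 and MFP 3. In T cells its share was 2.10%, 2.24% and 2.38%. Median depths over all cells, shallower ones included, were 11836, 11237 and 13388.5 UMIs in members and 5455, 4460 and 6692 UMIs in T cells. Among members with H2-M2, the median was 6, 7 and 4 UMIs of it in BrM 2, BrM 3 and MFP 3. For Dnase1l3 the same median was 5, 6 and 4 UMIs, and for Vcam1 4, 4 and 5 UMIs. The highest member held 59 UMIs of H2-M2 in BrM 2, 67 in BrM 3 and 37 in MFP 3. At 10 or more UMIs of H2-M2 were 21, 50 and 21 members of these libraries.

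**Figure D1:**
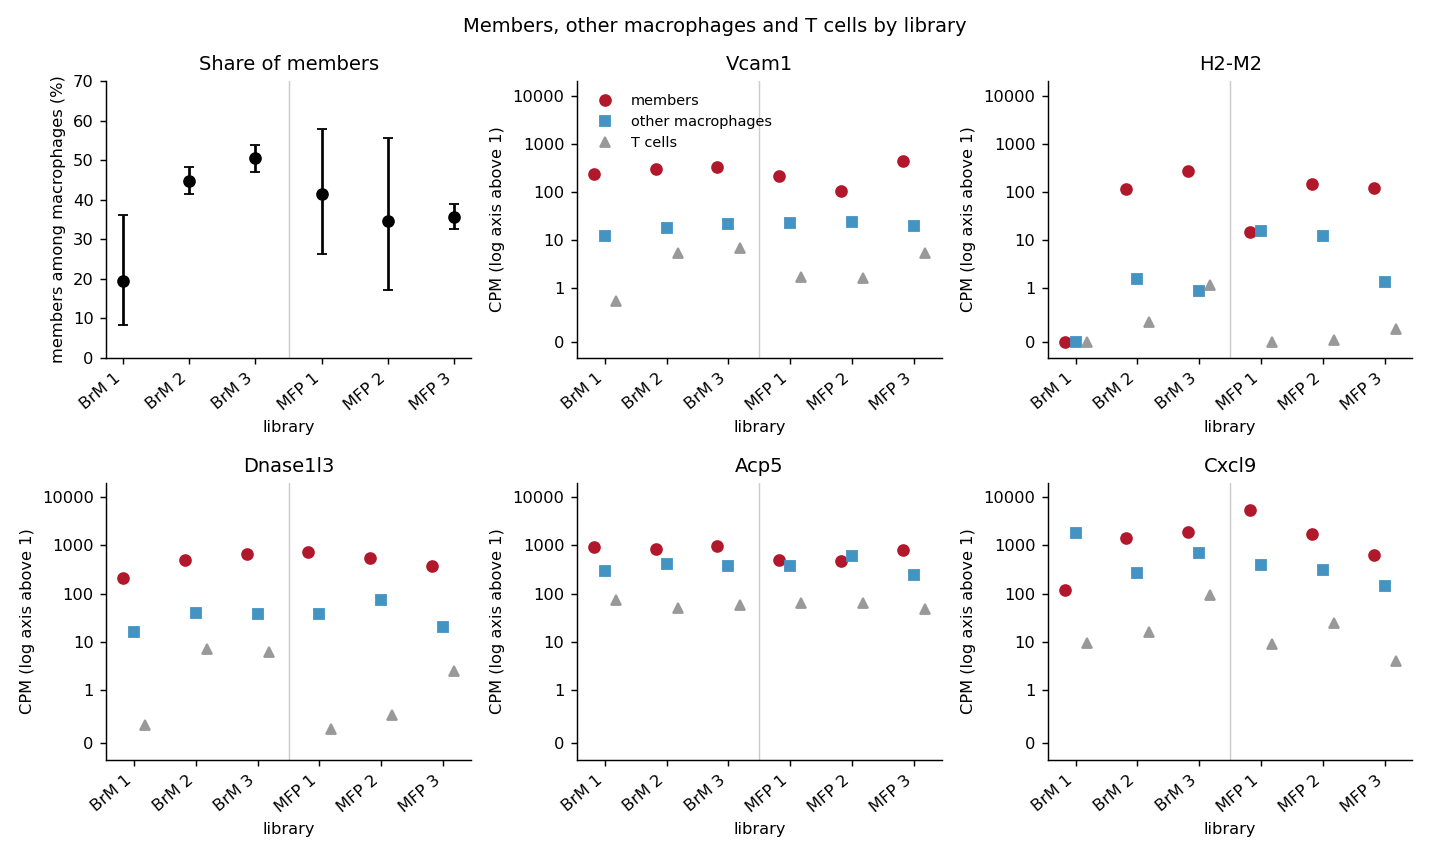
Share of members among macrophages with its exact 95% binomial interval (percent, top left), and CPM of Vcam1, H2-M2, Dnase1l3, Acp5 and Cxcl9 in members, other macrophages and T cells of each library (log axis). Members of BrM 2 held 826 CPM of Acp5 and other macrophages 404 CPM. MFP 2 is the 1 library in which members held less Acp5 than other macrophages, and BrM 1 the 1 library in which they held less Cxcl9.

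The threshold of 3 UMIs cut through a continuous distribution. In BrM 2, BrM 3 and MFP 3, 46, 46 and 43 members held exactly 3 UMIs of the 3 genes, just inside, and 63, 51 and 77 other macrophages held 2, just outside. The median member held 9, 10 and 8.5 UMIs of the 3 genes in these libraries and the highest 81, 94 and 84. In BrM 1 and MFP 2 the median member held 3 UMIs, so those members sat at the threshold.

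From macrophages without a UMI of the 3 genes to those with 20 or more, other genes moved along, which is given as a description. Acp5 stood at 967, 1287 and 983 CPM at 20 or more UMIs in BrM 2, BrM 3 and MFP 3, against 338, 286 and 144 CPM at 0 UMIs. Cxcl9 reached 2404, 2717 and 1180 CPM, against 187, 532 and 127 CPM. Ccr2, the receptor by which monocytes leave the bone marrow, was down to 53, 47 and 48 CPM at 20 or more UMIs, against 275, 277 and 744 CPM at 0. Depth differed too: the median was 13817, 13229 and 17007 UMIs per cell in the top bin, against 8214, 7092 and 10369 UMIs at 0. Calls on depth-matched cells are given with the gene tests.

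**Figure D2:**
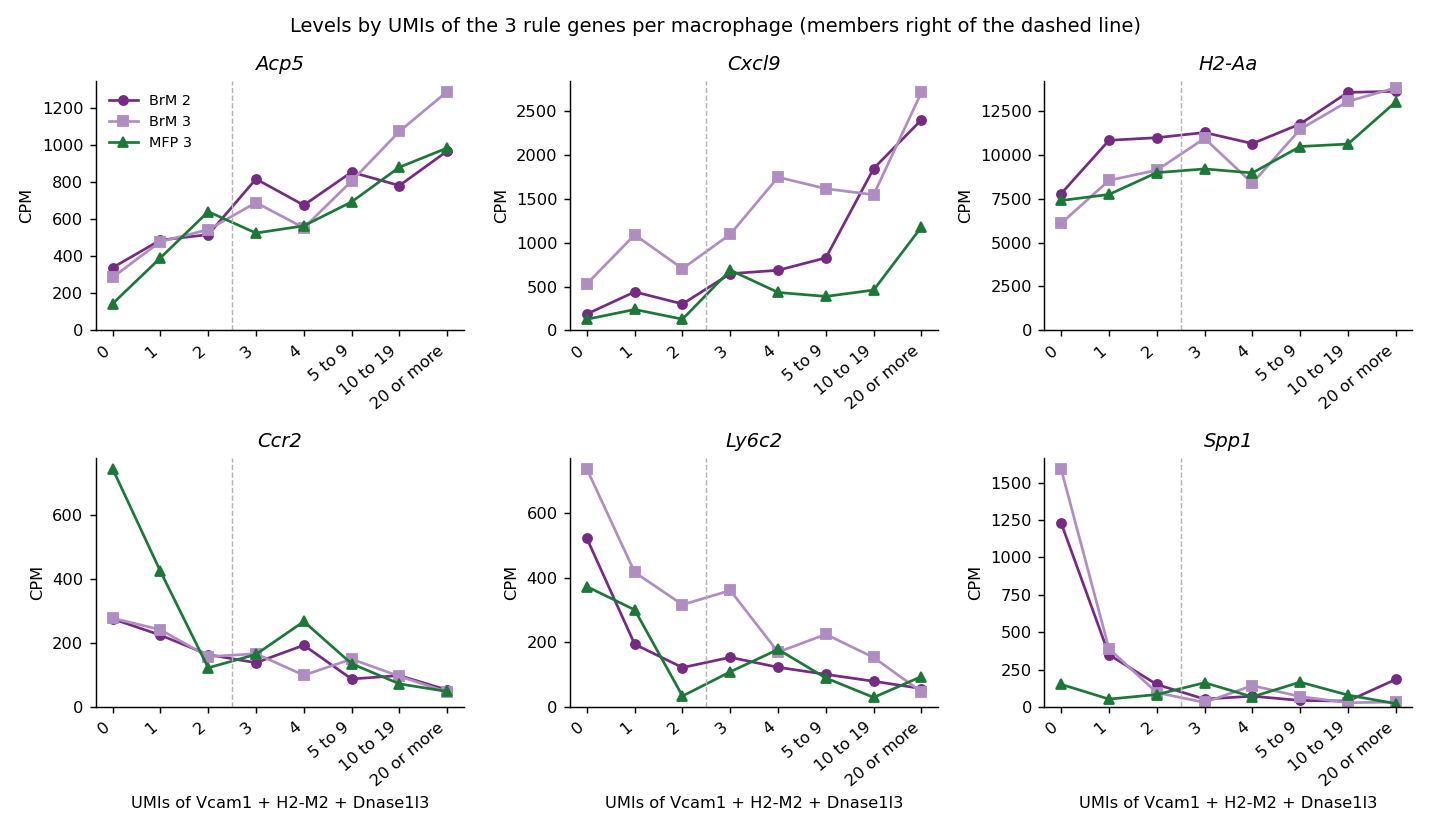
CPM of 6 genes in macrophages of BrM 2, BrM 3 and MFP 3, binned by their UMIs of Vcam1, H2-M2 and Dnase1l3 together; the dashed line marks the threshold for members. Acp5, Cxcl9 and H2-Aa were higher in the top bin than at 0 UMIs in all 3 libraries, and Ccr2, Ly6c2 and Spp1 lower.

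The macrophage label was set by the C1q counts of the definition, so the levels of other macrophage genes are given as a description and do not test it. The 12 macrophage identity genes summed to 11234 to 17340 CPM in members, against 11718 to 16879 CPM in other macrophages and at most 699 CPM in T cells of the 6 libraries. The fourth marker named for the state, Acp5, reached 933, 826 and 987 CPM in BrM members and 507, 480 and 789 CPM in MFP members. Other macrophages held 297, 404 and 366 CPM in BrM and 372, 606 and 246 CPM in MFP. Members were thus the higher set in 5 of 6 libraries, MFP 2 with its 9 members being the exception. T cell markers were low in members, which had been chosen to hold no Cd3e: the 8 T cell genes summed to 29.6 to 104 CPM, against 4416 to 4983 CPM in T cells. Some genes on lists of other lineages stood higher. In members of BrM 2, BrM 3 and MFP 3, Bst2 of the plasmacytoid dendritic cell list held 748, 754 and 853 CPM. Ighm of the B cell list held 102, 95.3 and 83.3 CPM there.

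For each gene, members were compared with other macrophages of the same library by the quasi-likelihood test of edgeR on UMIs summed per library and set, with Benjamini-Hochberg adjustment over all genes tested. BrM 2, BrM 3, MFP 1 and MFP 3 had at least 10 cells of both sets and entered the fit. At an adjusted p under 0.05, 461 of 9859 genes (4.68%) were called, 205 higher (2.08%) and 256 lower (2.6%) in members. Since the sets were cut by the 3 genes, any gene that varies with them from cell to cell had to differ, so the calls list which genes go with them and are no independent evidence of a separate cell type. Left without BrM 3, the fit called 217 genes. With cells matched for depth it called 323, among them all 24 genes named by rule and Acp5.

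Cxcl9 rose in members. It reached 1402 and 1902 CPM in members of BrM 2 and BrM 3 and 5449 and 646 CPM in members of MFP 1 and MFP 3. Other macrophages of the same libraries held 268, 684, 387 and 146 CPM. The groups overlapped between libraries, but members were the higher set in each of these 4 (log2 fold change 2.37, SE 0.25, adjusted p = 0.000188 by edgeR). Of the libraries outside the fit, the 9 members of MFP 2 held 1712 CPM against 303 CPM in other macrophages, while the 7 members of BrM 1 held 118 CPM against 1772 CPM. At a minimum of 5 cells per set, which brings in both, the adjusted p by edgeR was 0.0587; over 14 alternatives it ran from 1.02e-116 to 0.102. Cells of at least 5000 UMIs were also thinned to 5000 UMIs. Among those, Cxcl9 was detected in 58.6%, 68.2% and 38.4% of members of BrM 2, BrM 3 and MFP 3, against 21.3%, 38.4% and 13.9% of other macrophages.

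Procr, Mmp13, Cd207 and 8 further named genes rose as well. Procr, the receptor of protein C of the anticoagulant pathway, stood at 104, 125, 50.7 and 64.4 CPM in members of BrM 2, BrM 3, MFP 1 and MFP 3, against 21.2, 35.2, 0 and 13.7 CPM in other macrophages (log2 fold change 2.15, SE 0.16, adjusted p = 1.48e-05 by edgeR). No value of other macrophages in these 4 libraries reached the lowest value of the members. Mmp13, a collagenase, stood at 125, 85.9, 86.9 and 140 CPM in members, against 44.8, 18.9, 15.2 and 31.4 CPM in other macrophages (log2 fold change 1.95, SE 0.15, adjusted p = 2.80e-05). The groups did not overlap for Mmp13 either, but MFP 2, outside the fit, had 0 in members and 109 CPM in other macrophages. Cd207, which encodes langerin, the C-type lectin of Langerhans cells, was at 13.3, 22.8, 29.0 and 76.3 CPM in members and at 5.18, 6.61, 0 and 12.97 CPM in other macrophages, with the highest level in MFP 3.

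Lilra5, an activating leukocyte immunoglobulin-like receptor, stood at 69.3, 88.1, 65.2 and 70.1 CPM in members, against 28.7, 17.0, 37.9 and 18.6 CPM in other macrophages. Tlr12, a mouse Toll-like receptor for profilin, had a log2 fold change of 1.80 (SE 0.18). Dcstamp and Ocstamp, which osteoclasts and giant cells need to fuse, rose by log2 fold changes of 1.72 and 1.32. For Ocstamp the members' values were 57.8, 43.8, 79.7 and 53.8 CPM, all above the 33.7, 17.6, 30.3 and 15.3 CPM of other macrophages. Zmynd15, a zinc finger gene, stood at 386, 485, 543 and 517 CPM in members and 177, 178, 273 and 189 CPM in other macrophages. Fam189a2, Adgrg5 and Kctd14 rose as well, by log2 fold changes of 1.94, 1.36 and 1.35.

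Fn1, Thbs1, F13a1 and Plac8 were among the genes that fell in members. Fn1, which encodes fibronectin, was down to 11.7, 10.4, 0 and 120 CPM in members of BrM 2, BrM 3, MFP 1 and MFP 3, against 64.5, 133, 30.3 and 1349 CPM in other macrophages (log2 fold change -3.26, SE 0.19, adjusted p = 5.34e-06 by edgeR). Members were lower in each library by a wide margin, yet the members of MFP 3 held nearly as much as the other macrophages of BrM 3. Thbs1 (thrombospondin 1) stood at 45.0, 55.6, 0 and 43.9 CPM in members, against 277, 333, 220 and 193 CPM. F13a1, a coagulation factor of monocytes and resident macrophages, had a log2 fold change of -2.86. Plac8, high in monocytes, stood at 181, 241, 391 and 94.4 CPM in members and 596, 696, 2078 and 668 CPM in other macrophages.

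Spp1, the osteopontin gene, fell by 2.86 on the log2 scale (SE 0.58, adjusted p = 0.0125 by edgeR), but unevenly. It stood at 70.6 and 51.3 CPM in members of BrM 2 and BrM 3, against 838 and 1106 CPM in other macrophages. In MFP 1 and MFP 3 it stood at 0 and 98.6 CPM in members, against 15.2 and 126 CPM. The difference was thus large in the brain libraries and small in MFP 3, and it lost the threshold without BrM 3 (adjusted p = 0.116) and without MFP 1 (adjusted p = 0.0909); over 14 alternatives the adjusted p ran from 3.37e-77 to 0.171. Ms4a8a, Dok2, Ifitm6, Tiam1, Ahnak, Ecm1 and Slc28a2 completed the named genes that fell, with log2 fold changes of -2.91 to -1.93.

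**Figure D3:**
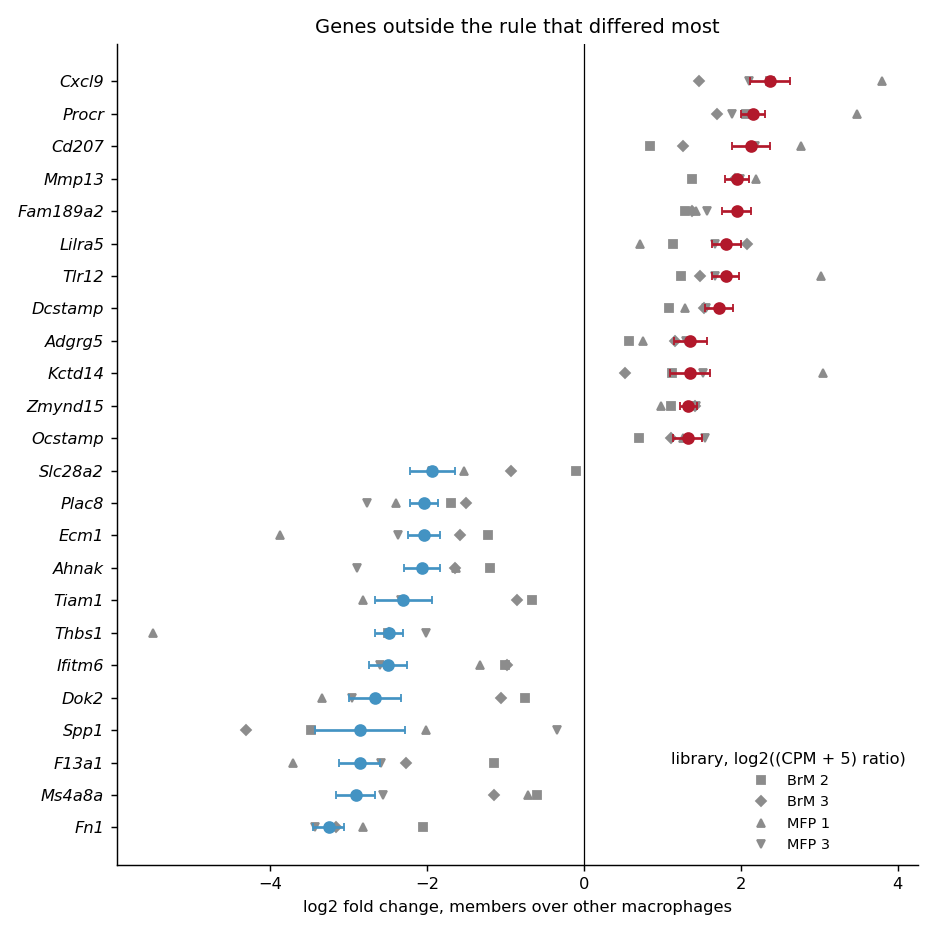
Log2 fold change of members over other macrophages for the 24 named genes (points with SE bars, edgeR), with the ratio in each library in grey after adding 5 CPM. Genes above 0 were higher in members; Cxcl9 has the highest value, 2.37, and Fn1 the lowest, -3.26.

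Of 14 genes of the monocyte list, all 14 were tested and all 14 fell in members, with a median log2 fold change of -1.57, against -0.00193 over all genes tested. With depth-matched cells 10 of them fell. Besides Fn1, Thbs1 and Plac8 they include Ly6c2 (-1.57) and Ccr2 (-1.58), which mark blood monocytes. The list summed to 4841, 2565 and 2924 CPM in members of the BrM libraries and 3768, 5972 and 2186 CPM in members of the MFP libraries. Other macrophages held 11070, 5025 and 6440.4 CPM in BrM and 7638, 6023 and 8519.9 CPM in MFP, so members were lower in each of 6 libraries, though barely in MFP 2. Of 13 genes of resident-like macrophages 6 fell and none rose, among them Mrc1 (the mannose receptor CD206, -1.86), Folr2 (-1.61), Clec10a (-1.56) and Maf (-1.05).

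Of the 12 macrophage identity genes, Cd63 (1.02) and the protease gene Ctss (0.39) rose and Itgam (-1.72) and the Fc receptor gene Fcgr1 (-0.47) fell. Itgam, the CD11b chain, stood at 37.4 and 51.5 CPM in members of BrM 2 and BrM 3 against 127 and 163 CPM in other macrophages. The other 8 did not pass the test, among them Adgre1 (F4/80), Csf1r, Cd68 and Mertk, with log2 fold changes of 0.01, 0.03, -0.07 and -0.12.

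Of 15 genes of antigen presentation by MHC class II 7 rose and none fell, and 8 did not pass the test. All 15 fold changes were positive, with a median of 0.39. With bias-adjusted deviances, and at a minimum of 20 cells, 4 rose. H2-Ab1, a chain of the class II molecule I-A, stood at 14295, 14596, 13825 and 12703 CPM in members of BrM 2, BrM 3, MFP 1 and MFP 3, against 9817, 7978, 7547 and 8062 CPM in other macrophages. Every member value lay above every value of other macrophages in these 4 libraries. Outside the fit the order was the other way, with 4841 CPM in the 7 members of BrM 1 against 7364 CPM, and 8477 CPM in the 9 members of MFP 2 against 10508 CPM. Cd74, the invariant chain, had a log2 fold change of 0.71, H2-Eb1 of 0.73, H2-Aa of 0.66 and H2-Oa of 0.96. None of 19 MHC class I genes was called in either direction.

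Among 21 genes of the interferon-gamma response 5 rose and none fell: Cxcl9, Irf8 (a transcription factor of myeloid cells, 0.64), Ccl5 (0.71), Gbp2 (0.56) and Slamf8 (0.53). Of 24 type I interferon genes none rose and 4 fell, Oas3, Ifi209, Rtp4 and Ddx58, with log2 fold changes of -0.71 to -0.56. The chemokine genes went both ways, with 3 of 19 higher and 6 lower. Cxcl9, Ccl5 and Cxcl16 (0.66), whose products draw T cells, rose. Ccl2 (-1.37) and Ccl7 (-1.43), which draw monocytes, fell together with Ccl9 (-1.74), Ccl6 (-1.89), Ccl12 (-0.66) and Cxcl13 (-3.01). In BrM 2 and BrM 3, Ccl2 stood at 168 and 248 CPM in members and 512 and 625 CPM in other macrophages.

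Of 10 tested genes of the osteoclast list, Acp5 (1.29), Dcstamp and Ocstamp rose and none fell. These were 30% of the list, against 4.68% called over all genes tested. Of 20 genes of growth factors and matrix proteases, 5 rose and 3 fell. Those that rose were the metalloproteinases Mmp13, Mmp2 (2.40) and Mmp12 (1.25), the growth factor Hgf (1.15) and urokinase, Plau (0.73). Those that fell were Gas6 (-1.69), Areg (-1.34) and Adam8 (-0.62). Of 16 adhesion genes 3 rose, Cadm1 (1.50), Itgax (CD11c, 0.92) and Itgal (0.67), and 2 fell, Itgam and Alcam (-0.73).

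Of 19 genes of lipid-loaded macrophages tested 6 fell, among them Ctsd (a lysosomal protease, -0.90), Apoc2 (-1.22), Trem2 (-1.06) and Spp1, and Cd63 rose. The other 12 did not pass the test, and at a minimum of 20 cells 3 fell. Both sets were limited to at most 2 UMIs of Gpnmb. Of 18 genes of checkpoint and suppression, Arg1 (arginase 1, -3.19), Lgals1 (-0.85) and Vsir (VISTA, -0.41) fell, while Havcr2 (TIM-3, 0.74) and Entpd1 (CD39, 0.71) rose. For Havcr2 the levels were 124, 114, 94.2 and 132 CPM in members and 96.8, 85.6, 75.8 and 49.3 CPM in other macrophages. The other 13 did not pass the test. Among 9 complement genes 2 rose, C3 (0.69) and Cfb (0.57), and 2 fell, among them C4b (-1.08). Of 20 genes of efferocytosis and scavenging, Lrp1 (-1.31), Pros1 (-1.45), Hmox1 (-1.38) and Gas6 fell and Havcr2 rose. Dtx4 (0.77) rose and Lfng (-0.67) and Notch2 (-0.68) fell among 11 genes of the Notch pathway, and Fdps (0.77) and Hmgcs1 (0.67) rose among 18 of cholesterol synthesis. Of 25 transcription factors Irf8 rose and Id3 (-0.94) and Maf fell. None of 22 genes of glycolysis and hypoxia, 27 of oxidative phosphorylation and 13 of nucleases and nucleic acid handling was called.

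A few markers of other cells moved with the state. Of 7 genes of conventional dendritic cells Clec9a (1.63) and Xcr1 (2.06) rose. Clec9a stood at 14.2, 21.6, 7.25 and 9.70 CPM in members and 5.95, 5.03, 0 and 3.51 CPM in other macrophages of BrM 2, BrM 3, MFP 1 and MFP 3. The whole dendritic list summed to 92.7, 92.4, 50.7 and 32.4 CPM in members, against 79.2, 54.1, 37.9 and 53.3 CPM in other macrophages; the part of such cells in the results was not tested. Of 8 T cell genes Cd4 alone rose (2.14). Of 24 proliferation genes Birc5, Mki67 and Top2a rose, but 0 of the 24 were called in depth-matched cells. Of 20 genes of dissociation stress, Ier3, Egr1 and Dusp1 fell and none rose.

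**Figure D4:**
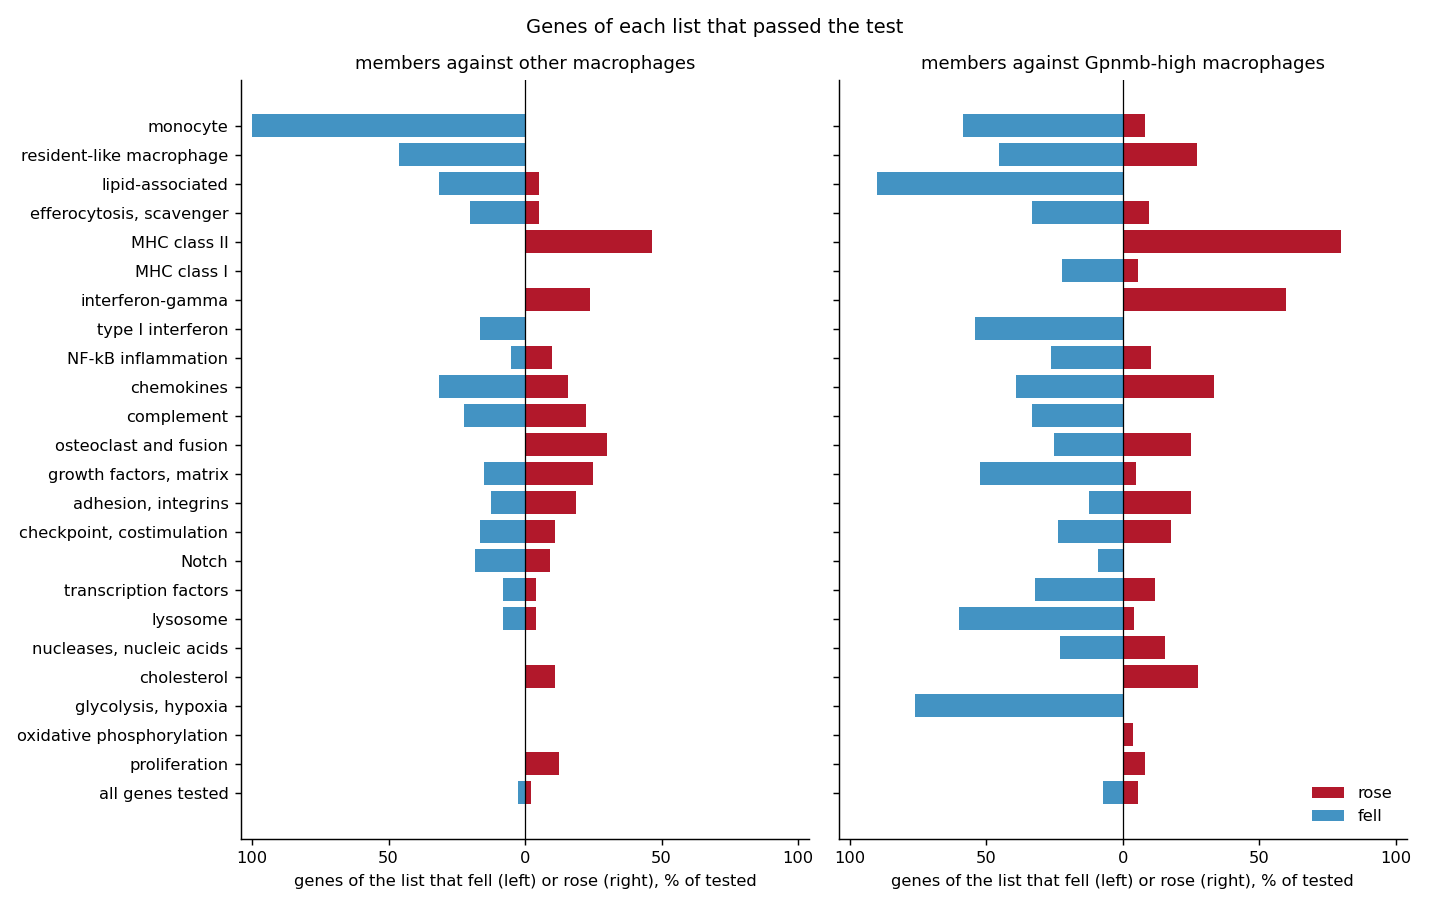
Share of the tested genes of each list (percent) that rose or fell at an adjusted p under 0.05, in members against other macrophages and in members against Gpnmb-high macrophages. Against other macrophages 14 of 14 monocyte genes fell; against Gpnmb-high macrophages 18 of 20 lipid-associated genes fell and 12 of 15 MHC class II genes rose.

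The Gpnmb-high macrophages differed from members more widely. The fit over BrM 2, BrM 3 and MFP 3 called 1150 of 9191 genes (12.5%), 506 higher (5.51%) and 644 lower (7.01%) in members. Without BrM 3 it called 637. Gpnmb set these 2 groups apart by definition, so genes that vary with it had to differ as well. Spp1 stood at 70.6, 51.3 and 98.6 CPM in members, against 6148, 3711 and 2546 CPM in Gpnmb-high macrophages. Fabp5, a fatty acid binding protein, stood at 173, 173 and 194 CPM against 4034, 3873 and 2816 CPM, and Arg1 at 1.38, 4.48 and 3.75 CPM against 73.2, 221 and 122 CPM. No library of members came near the Gpnmb-high values of these 3 genes. Trem2, the lipid receptor, stood at 110, 101 and 135 CPM in members and 1019.96, 663 and 729 CPM in Gpnmb-high macrophages (log2 fold change -2.84).

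Of 20 lipid-associated genes tested in that comparison 18 fell, and of 21 glycolysis and hypoxia genes 16 fell, with median log2 fold changes of -1.32 and -0.73. MHC class II moved the other way, with 12 of 15 genes higher and a median of 1.65. H2-Eb1 stood at 11774, 11955 and 11029 CPM in members against 2917, 4327 and 2375 CPM, and Ciita, the master regulator of class II genes, had a log2 fold change of 2.11. Of 20 interferon-gamma genes 12 rose and none fell, whereas 13 of 24 type I interferon genes fell and none rose. The osteoclast list divided, with Ocstamp and Acp5 (0.70) among 3 genes higher and Ctsk (-3.99) and Atp6v0d2 (-2.94) among 3 lower. Cd207 was found at 13.3, 22.8 and 76.3 CPM in members and at 0 in all 3 libraries of Gpnmb-high macrophages. Ocstamp stood at 57.8, 43.8 and 53.8 CPM in members and 1.49, 3.66 and 10.2 CPM in Gpnmb-high macrophages, and Il2ra, Ighm, Tlr12, Lilra5 and Siglece were also higher in members.

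Few genes differed at least 2 times, in each of 3 libraries, between members with H2-M2 and those without it. In BrM 2, BrM 3 and MFP 3, 39, 90 and 52 members held at least 3 UMIs of H2-M2 and 300, 304 and 253 held none. Among 5245 genes of at least 20 CPM, H2-M2 itself was the only one at least 2 times higher in all 3 libraries after adding 5 CPM. Ly6i and Plac8 were the only ones at least 2 times lower. Plac8 stood at 80.8, 138 and 5.14 CPM in members with H2-M2, against 191, 294 and 112 CPM in members without it. Ly6i, of the Ly6 family of surface proteins, stood at 32.7, 77.8 and 10.3 CPM against 88.5, 221 and 49.6 CPM. These are descriptions, since H2-M2 was part of the definition of members. No test was run, and smaller differences could not meet the limit, so the 2 groups are not shown to be alike.

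Between the sites, the share of members among macrophages did not differ beyond the spread of the libraries. Members were 19.4%, 44.8% and 50.5% of macrophages in BrM 1, BrM 2 and BrM 3 and 41.5%, 34.6% and 35.6% in MFP 1, MFP 2 and MFP 3. The exact Clopper-Pearson 95% intervals, which cover counting error only, ran from 8.19% to 36.0% for the 36 macrophages of BrM 1 and from 47.1% to 53.9% for BrM 3. The BrM mean was 38.2% ± 16.5 and the MFP mean 37.2% ± 3.70 (SD, n = 3 each), a difference of 1.02 points (exact two-sided permutation p = 1.00; the design cannot go below 0.1). The direction was not stable: the difference was 10.4 points without BrM 1 and -5.09 points without BrM 3. Within the 3 libraries of higher UMI total it was 12.0 points, and within the 3 of lower total -18.6 points. It was -11.0 points when the whole definition was applied anew to cells thinned to 5000 UMIs. That changed the set of macrophages, for example from 792 to 1194 in BrM 2 and from 927 to 1293 in MFP 3. BrM 1, MFP 1 and MFP 2 then held 27, 27 and 11, so this value is not a depth check on the same cells.

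The test of genes between BrM and MFP members rested on few libraries. BrM 2 and BrM 3 stood against MFP 3 and the 17 cells of MFP 1, since BrM 1 and MFP 2 had under 10 members. It called 158 of 10071 genes (1.57%), 66 higher (0.655%) and 92 lower (0.914%) in BrM. On simulated counts this fit made more false calls than its threshold allows, and the calls depended strongly on the method: DESeq2 called 2 genes, Gm42418 and Ly6d, and edgeR with bias-adjusted deviances called 0, with 1343 genes at an unadjusted p under 0.05. The edgeR count was 55 without BrM 2 and 60 without BrM 3. It was 1588 without MFP 1, where 1 MFP library remained and was assumed to vary like the others. Levels per library are therefore given for many genes, with the members of BrM 1 and MFP 2 beside them for some. Genes named without those values are described for the libraries of the fit only.

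Chemokine and cytokine genes were among those higher in BrM. Ccl12, a ligand of CCR2, stood at 342 and 643 CPM in members of BrM 2 and BrM 3 and at 79.7 and 185 CPM in members of MFP 1 and MFP 3 (log2 fold change 1.75, SE 0.30, adjusted p = 0.0151 by edgeR). The 7 members of BrM 1 held 311 CPM and the 9 of MFP 2 held 20.9 CPM, or 1 UMI, so the sites did not overlap over all 6 libraries. Over all 10071 genes, 41% had values that did not overlap between the 2 sites in the libraries of the fit. That share was not computed over all 6 libraries. Tnfsf9, the ligand of the costimulatory receptor 4-1BB, stood at 92.4 and 72.1 CPM in BrM members against 29.0 and 28.2 CPM in MFP members (log2 fold change 1.66, adjusted p = 0.000942), with 0 in the members of both BrM 1 and MFP 2. Gdf3, of the TGF-beta family, stood at 105 and 104 CPM in BrM members and 14.5 and 39.5 CPM in MFP members, while members of BrM 1 held 29.6 CPM and those of MFP 2 held 20.9 CPM.

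The inflammatory genes Cxcl1 and Il1b were higher in BrM by log2 fold changes of 1.42 and 0.68, and Adamdec1, a metalloprotease known from intestinal macrophages, by 2.06. Il1b stood at 4741 and 4994 CPM in members of BrM 2 and BrM 3 and 3326 and 3283 CPM in members of MFP 1 and MFP 3, but members of BrM 1 held 266 CPM and those of MFP 2 held 501 CPM. Cxcl13, the B cell chemokine, stood at 41.3 and 8.35 CPM in BrM members and 0 and 1.10 CPM in MFP members; other macrophages of BrM 2 and BrM 3 held more of it, 116 and 328 CPM. Nrg1, Igfbp5 and Xcl1 were named genes higher in BrM too, and which cells their transcripts came from was not tested. Of the microglia list Sparc (3.73) and Olfml3 (1.00) were higher in BrM members and Fcrls (-1.61) lower. P2ry12 and Tmem119 were 0 in members by definition.

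Several genes higher in BrM belong to markers of other cells. Epcam, an epithelial gene, stood at 54.8 and 22.8 CPM in BrM members and 7.25 and 7.94 CPM in MFP members, while T cells of the same libraries held 40.6, 17.2, 14.1 and 31.0 CPM. Csn3 (kappa-casein) stood at 85.8 and 39.3 CPM in BrM members and 0 and 4.63 CPM in MFP members, with 59.9, 21.2, 4.52 and 0.732 CPM in T cells. Ly6d (5.25) and Ccr9 (3.36), of the plasmacytoid dendritic cell list, and Ccr7 (3.51), of the dendritic cell list, were also called. The epithelial list summed to 118, 103 and 52.3 CPM in BrM members and 58.0, 0 and 23.8 CPM in MFP members, with Krt19 at 0 in members of all 6 libraries. The part of such transcripts in these calls was not tested.

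Of 11 genes of resident-like macrophages tested 5 fell in BrM members and none rose, and their values set MFP 3 apart from the other libraries. The 5 were Mrc1, F13a1, Cd163, Clec10a and Maf, with a median over the list of -1.15 against 0.00114 over all genes tested. Mrc1 stood at 11.5 and 9.36 CPM in members of BrM 2 and BrM 3 against 14.5 and 116 CPM in members of MFP 1 and MFP 3 (log2 fold change -3.22, adjusted p = 0.000159). It was 0 in the members of BrM 1 and MFP 2. F13a1 was at most 2.52 CPM in BrM members, against 0 in members of MFP 1 and MFP 2 and 68.8 CPM in those of MFP 3. The list summed to 459, 809.8 and 692 CPM in BrM members and 406, 125 and 1994 CPM in MFP members. At a minimum of 5 members per library, 2 genes of the list fell.

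Of 22 genes of glycolysis and hypoxia 5 fell in BrM and none rose, with a median of -0.58. Slc16a3, a lactate exporter, stood at 47.7 and 43.6 CPM in BrM members and 138 and 103 CPM in MFP members (log2 fold change -1.10, adjusted p = 0.0047), and Bnip3, induced by hypoxia, at 44.0 and 57.2 CPM against 196 and 119 CPM. The 7 members of BrM 1 held 74.0 CPM of Slc16a3 and 355 CPM of Bnip3, and those of MFP 2 104 and 41.8 CPM. Ero1l, Tpi1 and Gapdh were the others called. At a minimum of 5 members per library 1 gene of the list fell.

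Mmp12, Ccl9 and Rsad2 were also lower in BrM. Mmp12, the macrophage elastase, stood at 307 and 120 CPM in members of BrM 2 and BrM 3 and 536 and 691 CPM in members of MFP 1 and MFP 3 (log2 fold change -1.44, SE 0.33, adjusted p = 0.0452). It was 0 in the 7 members of BrM 1 and 459 CPM in the 9 of MFP 2, so it was lower in every BrM library than in every MFP library. How many genes separate the sites over all 6 libraries was not computed. Ccl9 stood at 43.3 and 36.4 CPM in BrM members and 72.5 and 162 CPM in MFP members (log2 fold change -1.79), but members of BrM 1 held 74.0 CPM and those of MFP 2 held 20.9 CPM. Rsad2, an antiviral interferon gene, stood at 215 and 166 CPM against 906 and 382 CPM, and with Ifit1 it was 1 of 2 type I interferon genes among 24 that fell. Egr2 stood at 10.6 and 7.12 CPM in BrM members and 43.5 and 38.1 CPM in MFP members. Cd207 and Ahnak, which differed between members and other macrophages too, had log2 fold changes of -1.86 and -1.72. Pmp22, Stard8, Hist1h4d, Wwp1 and Fzd7 were the remaining named genes, at -2.23 to -1.45.

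Of 20 genes of growth factors and matrix proteases 4 fell in BrM and none rose, Adam8 (-1.48), Pdgfb (-0.77) and Gas6 (-1.68) beside Mmp12. Of 20 genes of efferocytosis, Mertk (-1.66), a receptor for apoptotic cells, Lrp1 (-1.05) and Gas6 fell and none rose. Among 19 chemokine genes Cxcl1, Ccl12 and Cxcl13 were higher and Ccl9 and Ccl6 (-1.95) lower. Gas6 stood at 14.2 and 6.11 CPM in members of BrM 2 and BrM 3, against 0 in those of MFP 1 and 37.9 CPM in those of MFP 3, so MFP 3 alone held more than BrM. Mertk stood at 14.9 and 12.0 CPM in BrM members and 14.5 and 49.2 CPM in MFP members, and likewise separated MFP 3 from the rest. Among the 4 libraries of the fit so did Adam8, at 21.6 and 29.3 CPM in BrM members and 14.5 and 83.6 CPM in MFP members, and Lrp1, at 33.5 and 26.1 CPM against 14.5 and 71.7 CPM. Ccl6 stood at 52.1 and 51.9 CPM in BrM members and at 29.0 and 267 CPM in MFP members, so among these 4 libraries the members of MFP 1 held the least of all 3 genes.

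Acp5 and most MHC class II genes did not pass the test between the sites. Acp5 had a log2 fold change of 0.54 (adjusted p = 0.187), and of 16 MHC class II genes H2-DMb2 (1.30) rose. None of 21 interferon-gamma genes was called, and their median log2 fold change was 0.30. With a term for higher and lower UMI totals the median was 0.64, and within the libraries of higher total it was 0.65. Both of those values compare BrM members with MFP 3 alone. At a minimum of 5 members per library the median was 0.033, and with a replicate block at that minimum it was -0.14. No gene of the list was called at that minimum, with or without the block. None of 10 osteoclast genes was called. A p above the threshold at this depth and number of libraries does not show that levels were alike.

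Members stood apart from other macrophages to a different degree at the 2 sites for 312 of 10606 genes (2.94%), 172 with a more positive difference in BrM (1.62%) and 140 with a more negative one (1.32%), by edgeR's test of the interaction. Without BrM 3 the count was 23. S100a4, a monocyte gene, showed it clearly: in BrM 2 and BrM 3 it stood at 193 and 180 CPM in members against 270.0 and 343 CPM in other macrophages, and in MFP 1 and MFP 3 at 130.4 and 138 CPM against 675 and 996 CPM (log2 difference between sites 2.07). Spp1, given above, went the other way (-3.63). Without MFP 3 its value was 4.18 with an SE of 11.2, so no direction can be read from it. That fit had MFP 1 alone for its site, with 0 CPM of Spp1 in members and 15.2 CPM in other macrophages.

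**Figure D5:**
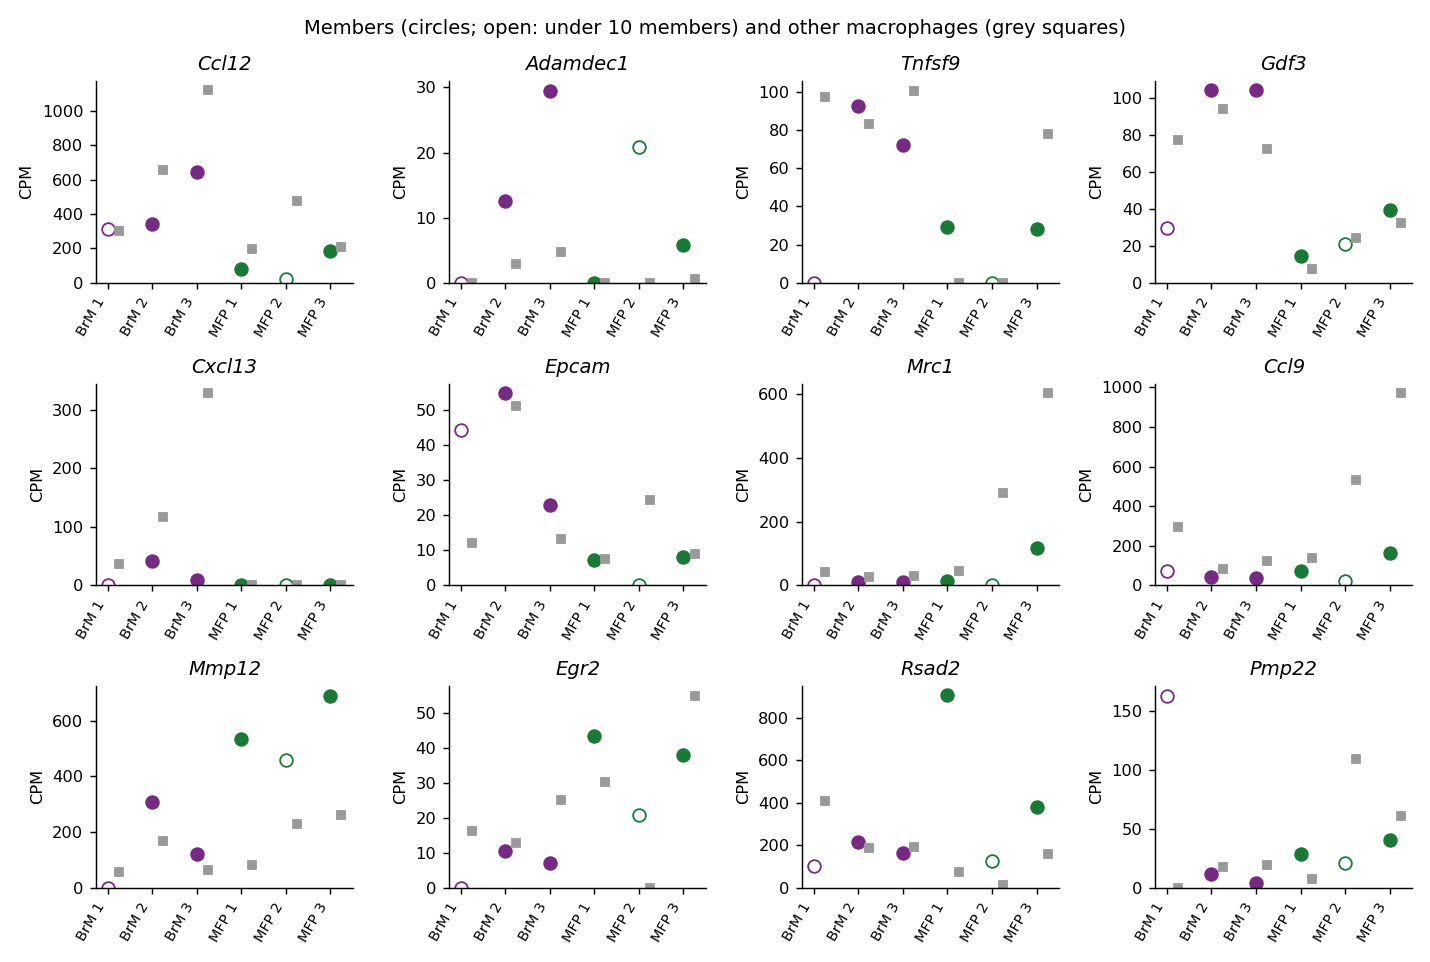
CPM of 12 genes per library in members (circles, open where a library had under 10 members) and in other macrophages (grey squares), BrM libraries left of MFP libraries. Ccl12 was higher in members of every BrM library than of any MFP library, and Mmp12 lower; Tnfsf9 and Ccl9 separated BrM 2 and BrM 3 from MFP 1 and MFP 3 but not BrM 1 from MFP 2.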

How the data were processed

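The deposited matrices of the 6 libraries give, for 32285 genes, UMI counts that the authors had not normalized. Cell Ranger 4.0 and the build mm10 are named in the submitters' processing notes. No column of the files was left unused. Of 49518 barcodes 2627 were removed by the filters on UMIs, genes and mitochondrial share. Doublets were not removed; Scrublet scores (scanpy 1.11.5) were computed per library, and leaving out the top 7% is an alternative.

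The counts of members, other macrophages and Gpnmb-high macrophages were summed per library, and sets of at least 10 cells entered edgeR 4.0.16 (R 4.3.3; quasi-likelihood test, TMM, filterByExpr), with library as a block where 2 sets of 1 library were compared. P-values were adjusted by the Benjamini-Hochberg method over all genes tested, at 0.05. The 11 genes of the definition stayed in the totals but were not tested. CPM are UMIs per 1000000 UMIs of the set. Log2 fold changes are members over the other set, or BrM over MFP. The test of the interaction asked whether the difference of members from other macrophages differed between sites. Shares were compared by an exact permutation test over the 6 libraries.

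Genes named were those of the definition and Acp5; up to 12 per direction with the largest fold change among those called, at 20 CPM or more and the same direction in every library (or no overlap of the sites); up to 4 per list with the smallest p; and list members where 5 or fewer were called; some genes that meet this rule are not reported here. The markers, lists and the definition of members were chosen with earlier results of these data known. The gene test was checked on simulated counts, where its false calls exceeded the threshold in both fits simulated, more so for BrM against MFP than for members against other macrophages. Alternatives were RLE scaling, DESeq2 1.42.0, no filter on low counts, minima of 5 and 20 cells, depth-matched cells, other thresholds and leaving out each library. Sequences came from RefSeq tables and coordinates from GENCODE; promoters of Vcam1 and Dnase1l3 are not shown.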

Additional observations from a re-analysis of the deposited data

Results flagged for a closer look

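The difference of members from other macrophages itself differed between BrM and MFP for 312 of 10606 genes (2.94%) by the interaction test of edgeR at an adjusted p under 0.05. All the values in this part are log2 differences of that kind, where a positive one means that members stood higher relative to other macrophages in BrM than in MFP. The test rested on BrM 2 and BrM 3 against MFP 1 and MFP 3, and the count was 38 without BrM 2, 23 without BrM 3, 646 without MFP 1 and 40 without MFP 3.

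Among the genes flagged with positive values, many were low in MFP members and high in other macrophages of MFP 3. They were Lyz1 (5.37), Mmp19 (3.20), Tppp3 (2.88), Nav1 (2.77), Pdlim1 (2.60), Gda (2.53), Glipr2 (2.5), Ccl8 (2.26), Hopx (2.21), Ear2 (2.16), Tiam1 (2.13) and S100a4 (2.07). Lyz1 stood at 27.6 CPM in members and 748 CPM in other macrophages of MFP 3 and was near 0 in the other libraries of the fit. Gda stood at 18.8 and 21.6 CPM in BrM members against 26.9 and 30.2 CPM in other BrM macrophages, and at 14.5 and 41.7 CPM in MFP members against 68.3 and 346 CPM in other MFP macrophages. Ccl8 stood higher in members than in other macrophages in BrM 2 (215 against 41.2 CPM), BrM 3 (171 against 62.6 CPM) and MFP 1 (188 against 114 CPM), and lower in MFP 3 (829 against 1152 CPM).

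The negative values were led by Spp1 (-3.63), which differed between the sets mainly in BrM. The others were Syngr1 (-3.22), Siglech (-3.05), Cst7 (-2.33), Ifit1 (-1.99), Il12b (-1.92), Arg2 (-1.78), Mir155hg (-1.68), Ldhb (-1.64), Rsad2 (-1.60), Tmem171 (-1.59) and Bhlhe41 (-1.56). Cst7, a gene of activated microglia and lymphocytes, stood at 17.9 and 27.5 CPM in members against 56.2 and 114 CPM in other macrophages of BrM 2 and BrM 3. In MFP 1 and MFP 3 it stood at 36.2 and 5.51 CPM in members against 37.9 and 3.81 CPM in other macrophages. Rsad2 stood at 215 and 166 CPM in BrM members against 187 and 193 CPM in other BrM macrophages, and at 906 and 382 CPM in MFP members against 75.8 and 158 CPM in other MFP macrophages. Of the microglia list 5 of 10 genes had called negative values, and of the resident-like list 8 of 17 had called positive ones. In other macrophages the resident-like list summed to 658, 666 and 623 CPM in the BrM libraries and 736, 3818 and 4717.5 CPM in the MFP libraries; the part of these levels in the differences was not tested.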

How the results depend on the processing

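Members against other macrophages gave 461 called genes, 952 with no filter on low counts, 15 without the library block, and 217 to 402 when 1 library was left out; 335 of the 342 genes called by DESeq2 were among the 461. Over all alternatives, the 24 named genes and Acp5 kept their direction, with 325 values on the same side of the threshold and 24 past it no longer. Members against Gpnmb-high macrophages gave 1150 genes, 536 by DESeq2, 442 without the library block and 637 to 935 when 1 library was left out. BrM against MFP members gave 158 genes, 2 by DESeq2 (150 at an unadjusted p under 0.05), 0 by edgeR with bias-adjusted deviances (1343 at an unadjusted p under 0.05), 536 with no filter on low counts, 1588 at a minimum of 20 cells and 78 at a minimum of 5. It gave 1208 with a term for higher and lower UMI totals, 1588 within the libraries of higher total and 104 within those of lower total; leaving out 1 library gave 55 to 1588. Without MFP 3 the count was 157, of which 20 were among the 158. Within the libraries of lower total Pmp22 turned to 2.41. At a minimum of 20 cells and within the libraries of higher total, MFP 3 was the only MFP library. With the term for UMI totals, MFP 1 was the only library of lower total, so that BrM 2 and BrM 3 again stood against MFP 3 alone. The interaction gave 312 genes, 16 by DESeq2, 51 by edgeR with bias-adjusted deviances, 646 at a minimum of 20 cells, 97 at a minimum of 5 and 23 to 646 when 1 library was left out; for Spp1 it was -4.13 with depth-matched cells and ran from -4.03 to 4.18 (without MFP 3) when 1 library was left out. The Spp1 value of 4.18 had an SE of 11.2, with MFP 1 as the only MFP library, and gives no direction. The difference in the share of members, 1.02 points, was -11.0 when the definition was applied anew to thinned cells, which changed the set of macrophages. It was -0.0754 without the top Scrublet scores, -1.64 at a threshold of 2 UMIs, -18.6 in the libraries of lower UMI total and -5.09 to 10.4 when 1 library was left out. The causes were not tested, beyond the fewer cells or libraries of a setting. The bias-adjusted fits, those at 5 cells with a block or a term, and the values within libraries of lower or higher total for the share were added after the data were seen.

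Replicate numbers are shared between the sites. The deviations of same-numbered libraries from their site means correlated at -0.0847, -0.181 and 0.175. Among differently numbered libraries, BrM 1 with MFP 3 gave -0.188 and BrM 2 with MFP 3 gave 0.194. With 3 libraries per site, 7 members in BrM 1 and 9 in MFP 2, these values cannot show whether the numbers pair the libraries. Only number 3 is shared among libraries with 10 or more members; at a minimum of 5, the fit with a replicate block called 12 genes.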
